A study of Mus musculus with 4 samples.

Results

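The basement membrane genes described here are 10 genes that encode the main structural proteins of the basement membrane. They were chosen by name from the 22913 genes measured, with earlier results of these data known. They are the collagen IV chains Col4a1 and Col4a2, the laminin chains Lama2, Lama4, Lama5, Lamb1 and Lamc1, the nidogens Nid1 and Nid2, and the perlecan gene Hspg2. RNA sequencing was done on dermal white adipose tissue (dWAT), the fat layer at the base of the hair follicles (HFs), of C57BL/6 mice. The 4 groups were old telogen dWAT (OTD), young telogen dWAT (YTD), old anagen dWAT (OAD) and young anagen dWAT (YAD), where telogen is the resting and anagen the growth phase of the hair cycle. Old mice were 18 months and young mice 2 months of age, and anagen was induced by depilation. Each group is represented by 1 library, from dissected dWAT of 20 mice from which the fat and the thin muscle beneath it had been taken away. The age tag of YTD and that of OAD conflict with their titles, and the titles were followed.

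Basement membranes are thin sheets of extracellular matrix that surround each adipocyte, muscle fibre and Schwann cell, underlie blood vessel endothelium, and separate the epidermis and HF from the dermis. Laminins, heterotrimers of an alpha, a beta and a gamma chain, assemble on the cell surface into a polymer bound by integrins and dystroglycan. Collagen IV forms a second, covalently crosslinked network, and nidogens and the proteoglycan perlecan join the networks. In fat, the adipocyte basement membrane changes as the cell enlarges and shrinks.

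The values are FPKM, by definition fragment counts divided by the gene's listed length and by library size. Whether the libraries were scaled further is not given. FPKM is a level per length, and genes of a library were compared on it. For all 10 genes the listed length is a coding length. Whether fragments outside the coding sequence were counted is not given, and the intervals of ratios between genes do not cover this. With 1 library per group there is no spread between replicates, and no p-value is given. Instead each ratio of FPKM carries a 95% counting interval, computed from the fragments estimated for the gene, which covers counting error only. By an estimate from the lowest values, libraries held 18800000 to 23700000 fragments. Changes are differences of log2(FPKM + 1), and the word changed is kept for those of 1 or more in size. Transcripts of mitochondrial DNA made up 52.7% (OTD) and 44.7% (YTD) of the summed FPKM in telogen but 18.3% (OAD) and 14.4% (YAD) in anagen, and values were therefore also rescaled, to TPM (each library brought to the same sum), by the median of ratios, and to TPM without mitochondrial genes or also without muscle and hair genes. In this bulk tissue, fewer cells of a type and less RNA per cell cannot be told apart.

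The tissue was checked against marker lists. The 15 adipocyte markers summed to 8287 FPKM in OTD and 7148 in YTD, against 2908 in OAD and 2073 in YAD, and none was at 0. The 20 skeletal muscle markers summed to 78149 FPKM in OTD and 122557 in YTD, against 18214 in OAD and 13988 in YAD, and none of these was at 0 either. The 17 measured markers of the HF matrix and hair shaft summed to 262 FPKM in OTD and 470 in YTD, against 25644 in OAD and 20115 in YAD. The libraries labelled dWAT thus held adipocyte transcripts together with muscle transcripts, most in telogen, and HF transcripts, most in anagen. The part of these tissues in the levels of the basement membrane genes was not tested.

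Col4a1 and Col4a2 encode the chains of the most widespread collagen IV molecule, which is made of 3 chains. They lie head to head on chromosome 8 of GRCm38, Col4a1 (ENSMUSG00000031502) on the minus strand at 11198423 to 11312826 and Col4a2 (ENSMUSG00000031503) on the plus strand at 11312805 to 11449287. Their annotated starts overlap by 22 bases, shown here because the pair shares this start and had near-parallel levels, with the match to the GC box (GGGCGG, searched on both strands) in capitals.
Col4a1 and Col4a2 overlap, chr8:11312805-11312826, plus strand: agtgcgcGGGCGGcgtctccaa

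Col4a1 was at 25.3 FPKM in OTD and 33.4 in YTD, against 29.1 in OAD and 39.6 in YAD. Col4a2 was at 15.9 FPKM in OTD and 23.7 in YTD, against 20.6 in OAD and 28.7 in YAD. For both genes the lowest library was OTD and the highest was YAD, and each old library was below the young library of its phase. The OTD/YTD ratio of Col4a1 was 0.758 (counting interval 0.719 to 0.799) and that of Col4a2 was 0.671 (0.629 to 0.715). In anagen, the OAD/YAD ratio was 0.735 (0.703 to 0.768) for Col4a1 and 0.716 (0.679 to 0.754) for Col4a2. Both chains were therefore lower in old dWAT in both phases beyond counting error, and they were so under every rescaling tried. In anagen the rescalings moved all genes down or hardly at all, so they could not turn this direction. Within a library, where scaling cancels, the Col4a1/Col4a2 ratio was 1.59 (1.49 to 1.69) in OTD and 1.41 (1.33 to 1.49) in YTD, against 1.41 (1.34 to 1.49) in OAD and 1.38 (1.32 to 1.44) in YAD. The ratio was highest in OTD. The other chains were low, with Col4a5 the highest at 1.40 FPKM in OTD and 1.63 in YTD, against 3.86 in OAD and 3.57 in YAD, and of the summed FPKM of the collagen IV chains Col4a1 held 52.9% to 57.4% and Col4a2 36.1% to 39.6%.

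**Figure D1:**
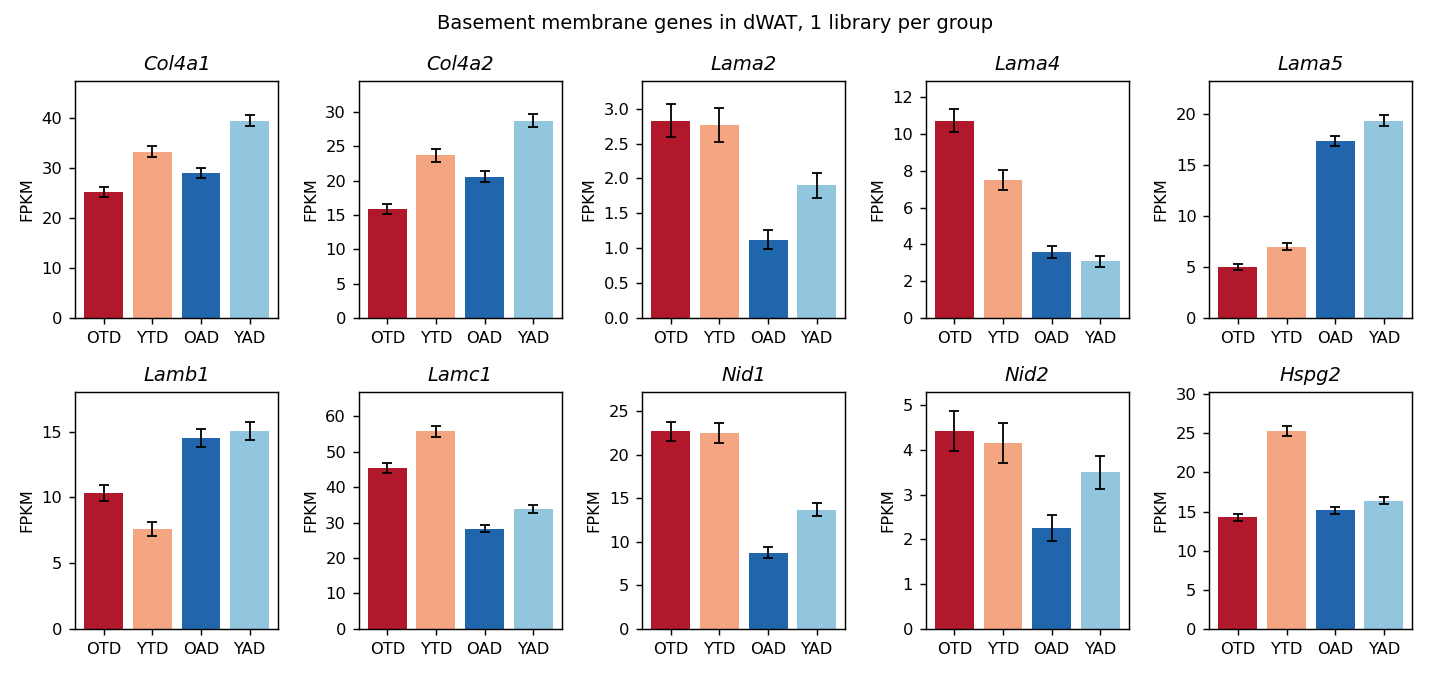
FPKM (y axis, from 0, its own scale in each panel) of the 10 basement membrane genes in the 4 libraries OTD, YTD, OAD and YAD, with bars for the level and error bars for its approximate 95% counting error. Col4a1 and Col4a2 are lower in each old library than in the young one of the same phase, Lama5 is highest in anagen (17.3 and 19.3 FPKM) and Lama4 highest in telogen (10.7 and 7.49 FPKM).

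The laminin alpha chains give a laminin its cell contacts. Lama4 (ENSMUSG00000019846, chromosome 10, plus strand, 38965515 to 39110188) encodes the alpha4 chain of the laminins of adipocytes and endothelium. Lama4 was at 10.7 FPKM in OTD and 7.49 in YTD, against 3.58 in OAD and 3.09 in YAD. It was higher in both telogen libraries than in both anagen libraries, and was the only one of the 10 genes higher in the old library in both phases as deposited, although its anagen direction turned in TPM. The OTD/YTD ratio was 1.43 (1.31 to 1.57). The OAD/YAD ratio was 1.16 (1.01 to 1.33). The 12 endothelial markers lay in the same direction, all 12 higher in the old library in both phases as deposited and 10 of 12 in anagen in TPM. Their median log2 change was 0.58 in telogen and 0.30 in anagen, with sums of 651 FPKM in OTD and 420 in YTD, against 167 in OAD and 125 in YAD. Of the 15 adipocyte markers, 7 were higher and 8 lower in OTD (median -0.10), and 14 were higher in OAD (median 0.30). Fibroblast, macrophage, mural cell and Schwann cell markers also had medians above 0 in telogen (0.46, 0.47, 0.36 and 0.33). Muscle, keratinocyte and HF markers had medians below 0 there. The part of these cell types in the Lama4 level was not tested.

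Lama5 (ENSMUSG00000015647, chromosome 2, minus strand, 180176373 to 180225859) encodes the alpha5 chain, which is found in epithelial and vascular basement membranes. Lama5 was at 4.97 FPKM in OTD and 6.98 in YTD, against 17.3 in OAD and 19.3 in YAD. Both anagen libraries were far above both telogen libraries, and each old library was below its young counterpart. The OTD/YTD ratio was 0.711 (0.657 to 0.769) and the OAD/YAD ratio was 0.895 (0.860 to 0.932). Lama2 (ENSMUSG00000019899, chromosome 10, minus strand, 26981285 to 27616843) encodes the alpha2 chain of muscle and Schwann cell laminin. Lama2 was the lowest of the 10 genes in every library, at 2.83 FPKM in OTD and 2.76 in YTD, against 1.13 in OAD and 1.90 in YAD. The telogen pair differed by less than counting error, with an OTD/YTD ratio of 1.02 (0.903 to 1.16), while the OAD/YAD ratio was 0.593 (0.505 to 0.695).

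The upstream sequences of Lama2 and Lama5 are shown because these alpha chains had opposite changes between telogen and anagen as deposited. They are the 250 bases before the RefSeq start on GRCm38.p6, given 5′ to 3′ on the gene's strand, with matches to the GC box (GGGCGG or CCGCCC) in capitals.
Lama2, chr10:27616943-27617192, minus strand: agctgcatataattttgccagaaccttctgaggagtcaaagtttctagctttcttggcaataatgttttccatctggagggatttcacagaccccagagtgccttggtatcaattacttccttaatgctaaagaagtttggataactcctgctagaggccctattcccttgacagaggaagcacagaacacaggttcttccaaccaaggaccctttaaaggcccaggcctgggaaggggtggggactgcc
Lama5, chr2:180225860-180226109, minus strand: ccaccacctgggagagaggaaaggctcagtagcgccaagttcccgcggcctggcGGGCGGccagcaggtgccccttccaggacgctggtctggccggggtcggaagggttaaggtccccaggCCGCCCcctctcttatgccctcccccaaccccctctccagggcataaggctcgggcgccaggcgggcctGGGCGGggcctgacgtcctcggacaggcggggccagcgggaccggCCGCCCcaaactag
The Lama5 window held 4 matches and a GC content of 72.4%, and the Lama2 window held 0 matches and a GC content of 47.2%. Of 32851 windows of the same length, 32.7% held the GC box and 4.09% held at least 4 matches, and the median GC content was 52.4%. The CCAAT box (CCAAT) and the TATA box (TATAAA) were also searched, and the Lama5 and Lama2 windows both held 0 matches to each. Of all windows, 33.8% held the CCAAT box and 12.4% the TATA box. Among the 7 genes of the 10 with a window, Hspg2 held 5 matches, Lamb1 and Col4a2 held 2 each, Nid1 held 1 and Col4a1 held 0. Apart from Lama2, the windows of these genes had GC contents of 62% (Lamb1) to 74.4% (Col4a1). Lama4, Lamc1 and Nid2 had no window. As deposited, the Lama2 change between phases was under 1 in size (log2 -0.38 in young and -0.85 in old mice). In young mice its direction turned in TPM. Any link between these sequences and the levels was not tested.

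Lamb1 (ENSMUSG00000002900, chromosome 12, plus strand, 31265234 to 31329644) encodes the beta1 chain. Lamb1 was at 10.4 FPKM in OTD and 7.61 in YTD, against 14.5 in OAD and 15.0 in YAD. YTD was the lowest library, and the anagen pair lay close together. The OTD/YTD ratio was 1.36 (1.24 to 1.49) and the OAD/YAD ratio was 0.966 (0.906 to 1.03), the latter within counting error. Lamc1 (ENSMUSG00000026478, chromosome 1, minus strand, 153218922 to 153332786) encodes the gamma1 chain that most laminins contain. Lamc1 was at 45.5 FPKM in OTD and 55.8 in YTD, against 28.3 in OAD and 33.8 in YAD. Both telogen libraries were above both anagen libraries, and old was below young in each phase, with ratios of 0.815 (0.783 to 0.849) in telogen and 0.836 (0.797 to 0.876) in anagen.

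Nidogens link laminin to collagen IV. Nid1 (ENSMUSG00000005397, chromosome 13, plus strand, 13437602 to 13512275) was at 22.7 FPKM in OTD and 22.5 in YTD, against 8.75 in OAD and 13.7 in YAD. Nid2 (ENSMUSG00000021806, chromosome 14, plus strand, 19751257 to 19811787) was at 4.41 FPKM in OTD and 4.15 in YTD, against 2.25 in OAD and 3.50 in YAD. For both nidogens the telogen libraries were alike within counting error and OAD was the lowest library. The OTD/YTD ratio was 1.01 (0.941 to 1.08) for Nid1 and 1.06 (0.916 to 1.24) for Nid2. The OAD/YAD ratio was 0.639 (0.583 to 0.700) for Nid1 and 0.642 (0.538 to 0.759) for Nid2. On the log2(FPKM + 1) scale, Nid1 had the largest old-against-young difference of the 10 genes in anagen (-0.59), while Lama2, a lower gene, had the smaller ratio. The Nid1/Nid2 ratio within a library was 5.14 (4.59 to 5.77) in OTD and 5.43 (4.82 to 6.14) in YTD, against 3.89 (3.36 to 4.55) in OAD and 3.91 (3.46 to 4.42) in YAD.

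Hspg2 (ENSMUSG00000028763, chromosome 4, plus strand, 137468769 to 137570630) encodes perlecan, a heparan sulfate proteoglycan that binds growth factors and dystroglycan. Hspg2 was at 14.3 FPKM in OTD and 25.3 in YTD, against 15.2 in OAD and 16.4 in YAD. YTD stood above the other libraries, which lay between 14.3 and 16.4 FPKM. The OTD/YTD ratio was 0.564 (0.542 to 0.588), which was the largest old-against-young difference of the 10 genes in telogen (log2 -0.78), and the OAD/YAD ratio was 0.927 (0.891 to 0.965). In telogen the 20 skeletal muscle markers were all below YTD in OTD (median log2 change -0.63). So were all 17 HF markers (median -0.85), and the keratinocyte and adipocyte medians were -0.36 and -0.10. The other marker lists had medians above 0. In anagen the muscle, HF and keratinocyte medians were 0.22, -0.004 and 0.21. The part of these tissues in the Hspg2 difference was not tested.

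Between OTD and YTD, the 10 genes split into 5 higher and 5 lower in the old library (median log2 change -0.14). Over all genes of at least 1 FPKM, 56.0% were lower in OTD and the median was -0.06. None of the 10 was changed by 1 or more, against 3.60% of all genes above 0. The counting interval of the ratio left out 1 for 7 of the 10, of which 2 were higher and 5 lower, against 58.3% of all genes of at least 1 FPKM. The interval narrows as a gene has more fragments, and these shares were not matched for fragment number. The telogen directions of the 10 genes held under every rescaling. The rescalings moved all genes up or hardly at all, so genes higher in OTD could hardly turn.

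Between OAD and YAD, 9 of the 10 genes were lower in the old library and 1 was higher (median log2 change -0.34). Over all genes of at least 1 FPKM, 50.1% were lower in OAD and the median was 0.00. None of the 10 was changed by 1 or more, against 1.18% of all genes above 0. The interval left out 1 for 9 of the 10, of which 1 was higher and 8 lower, against 38.9% of all genes. Here too the shares were not matched for fragment number. In TPM all genes shifted by -0.21 and all 10 basement membrane genes were lower in OAD. Relative to the shift of all genes the median of the 10 was -0.34 to -0.35. Each scaling multiplies a library by a constant, which this subtraction largely removes. The closeness between scalings is therefore built in and is no support. Across both phases, Col4a1, Col4a2, Lama5, Lamc1 and Hspg2 were lower in the old library each time. The summed FPKM of the 10 genes was 157 in OTD and 189.6 in YTD, against 140.6 in OAD and 175.1 in YAD.

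**Figure D2:**
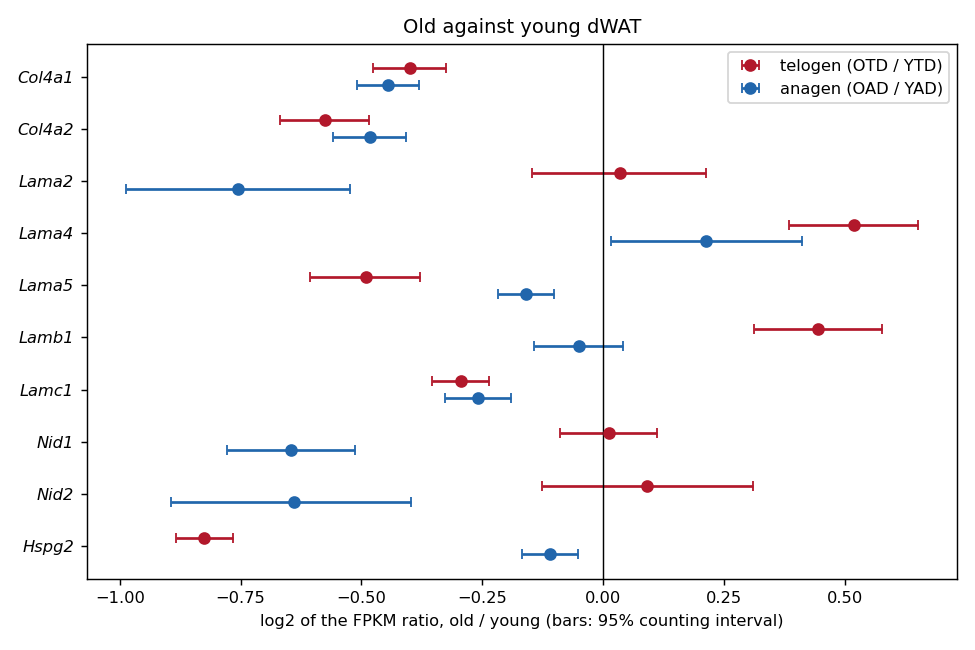
Log2 of the FPKM ratio of old to young dWAT (x axis) for each basement membrane gene (y axis), in telogen (red, OTD/YTD) and anagen (blue, OAD/YAD), with bars for the 95% counting interval and a line at no difference. Hspg2 lies farthest to the left in telogen (ratio 0.564), and 9 of 10 genes lie left of the line in anagen.

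Between hair cycle phases, the laminin alpha chains Lama5 and Lama4 had the largest differences as deposited. In young mice, Lama5 was higher in YAD than YTD by 1.35 on the log2 scale (ratio 2.77, 2.61 to 2.94) and Lama4 was lower by 1.05 (log2 -1.05, ratio 0.412, 0.364 to 0.466). As deposited, these were the 2 of 10 genes changed by 1 or more, against 32.7% of all genes above 0. Lama4 was under 1 in size in TPM (-0.36) and in both versions without mitochondrial genes (-0.94 in each), and the 4 genes changed in TPM were Col4a1, Col4a2, Lama5 and Lamb1. Over all genes in TPM, 5891 of 17622 were higher and 1274 lower by 1 or more. In old mice, Lama5 was higher in OAD than OTD (log2 1.62, ratio 3.49, 3.26 to 3.73), while Lama4 (log2 -1.36, ratio 0.334, 0.299 to 0.372) and Nid1 (log2 -1.28, ratio 0.385, 0.354 to 0.420) were lower, so that 3 of 10 were changed as deposited, against 31.7% of all genes. In TPM, Lama4 (-0.83) and Nid1 (-0.71) were under 1 in size, and the 2 genes changed were Lama5 (2.16) and Lamb1 (1.02). Over all genes in TPM, 4923 of 17712 were higher and 1502 lower by 1 or more in old mice. With a pseudocount of 0.1, and without mitochondrial genes, 4 of the 10 were changed in old mice. Without mitochondrial genes, 2771 genes of the whole table were higher by 1 or more and 3574 lower. The share of all genes at a pseudocount of 0.1 is not given. Lama2 in old mice had a ratio of 0.398 (0.342 to 0.464), but at its low FPKM the log2 change was -0.85. Lamb1 was also higher in anagen, by 0.90 in young and 0.45 in old mice, and so were Col4a1 (0.24 and 0.20) and Col4a2 (0.27 and 0.35). As deposited, Lamc1 was lower in anagen in young and old mice (log2 -0.71 and -0.67), as were Nid1 in young mice (-0.68), Nid2 (-0.19 and -0.74) and Lama2 in young mice (-0.38). Hspg2 was lower in young (-0.60) and slightly higher in old mice (0.08). Between phases, the HF and keratinocyte lists had medians above 0 in anagen. All 7 other marker lists had medians below 0, in young and old mice respectively -3.01 and -1.99 for muscle, -1.71 and -1.37 for adipocytes, -1.57 and -1.85 for endothelium, -1.42 and -2.05 for macrophages, -1.19 and -2.80 for fibroblasts, -1.09 and -1.51 for Schwann cells, and -0.83 and -1.55 for mural cells. Their part in these differences was not tested.

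As deposited, 4 genes were higher and 6 lower in YAD than YTD, and 5 were higher and 5 lower in OAD than OTD, while 50.9% and 51.6% of all genes of at least 1 FPKM were higher in anagen. These counts depended on the scaling. In TPM all genes shifted by 0.76 in young and 0.58 in old mice, and 9 of the 10 genes were then higher in YAD than YTD. Lama2, Lamc1, Nid1, Nid2 and Hspg2 changed direction in TPM in young mice. Without the mitochondrial genes, Hspg2 was lower in OAD than OTD. The directions of Lama5, Lamb1, Col4a1 and Col4a2 (higher in anagen) and of Lama4 (lower in anagen) held under every scaling in both ages. In young mice every rescaling moved all genes up, so the genes higher in anagen could not turn there. Relative to the shift of all genes, the median of the 10 was -0.31 to -0.41 in young mice and -0.28 to -0.36 in old mice. Here too the subtraction largely removes the constant of each scaling, so the closeness is built in.

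**Figure D3:**
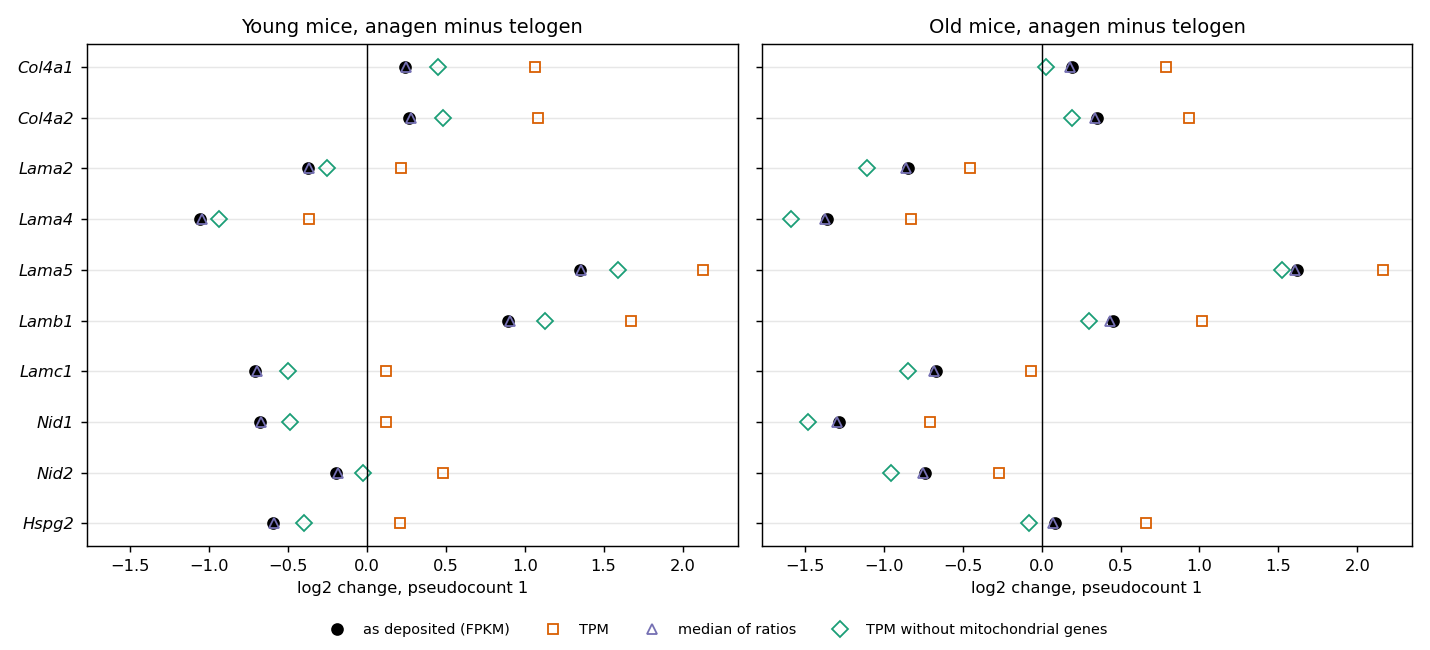
Log2 change between anagen and telogen (x axis, pseudocount 1) of each basement membrane gene in young (left) and old (right) mice, for FPKM as deposited, TPM, the median of ratios, and TPM without mitochondrial genes. Lama5 is on the right and Lama4 on the left under all 4 scalings, while Lamc1, Nid1, Nid2, Lama2 and Hspg2 cross the line in TPM in young mice.

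The make-up of the laminin chains can be read within each library, where scaling cancels. Of the summed FPKM of the alpha chains, Lama4 held 55.5% in OTD and 41.8% in YTD, against 13.3% in OAD and 10.7% in YAD, and Lama5 held 25.7% in OTD and 39.0% in YTD, against 64.2% in OAD and 66.9% in YAD. Lama4 was thus the leading alpha chain in OTD, and Lama5 was in OAD and YAD. The Lama5/Lama4 ratio was 0.463 (0.426 to 0.503) in OTD and 0.933 (0.854 to 1.02) in YTD, against 4.84 (4.39 to 5.33) in OAD and 6.26 (5.65 to 6.96) in YAD, so that in each phase the old library had the lower ratio, and in YTD the chains did not differ beyond counting error. By fragments instead of per length, the YTD shares were 51.5% for Lama5 and 27.0% for Lama4, while the OTD shares were 37.4% and 39.4%. Lama3, an alpha chain of epithelial basement membranes, held 4.04% in OTD and 3.69% in YTD, against 18.2% in OAD and 15.7% in YAD. Lama2 held 14.6%, 15.4%, 4.17% and 6.57% in OTD, YTD, OAD and YAD.

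Of the beta chains, Lamb2, the beta2 chain of muscle and vessel laminins, was at 31.1 FPKM in OTD and 33.5 in YTD, against 14.5 in OAD and 18.3 in YAD. The Lamb2/Lamb1 ratio was 3.002 (2.81 to 3.21) in OTD and 4.39 (4.06 to 4.75) in YTD, against 0.996 (0.934 to 1.06) in OAD and 1.22 (1.15 to 1.29) in YAD. Lamb2 thus exceeded Lamb1 in both telogen libraries, and in OAD the chains were level within counting error. The keratinocyte markers summed to 137 FPKM in OTD and 198 in YTD, against 3734 in OAD and 2854 in YAD, and their part in the anagen make-up was not tested.

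**Figure D4:**
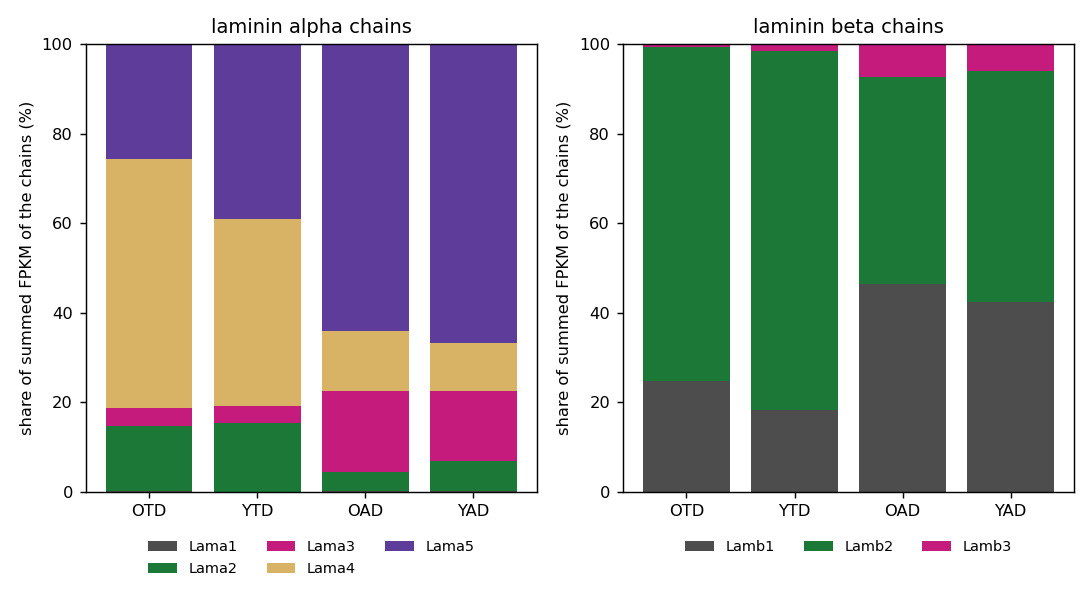
Share (%, y axis) of each chain in the summed FPKM of the laminin alpha (left) and beta (right) chains in OTD, YTD, OAD and YAD. Lama4 leads the alpha chains in OTD (55.5%), Lama4 (41.8%) and Lama5 (39.0%) are level within counting error in YTD, and Lama5 leads in OAD (64.2%) and YAD (66.9%).

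In order of level, Lamc1 was first and Col4a1 second in both telogen libraries, and Col4a1 was first and Lamc1 second in both anagen libraries. In OAD these leaders did not differ beyond counting error (ratio 1.03, 0.981 to 1.08), and in YAD they did (1.17, 1.12 to 1.22). Other neighbours in the order that did not differ beyond counting error were Lama4 and Lamb1 and then Lama5 and Nid2 in OTD, Col4a2 and Nid1, Lamb1 and Lama4, and Lama4 and Lama5 in YTD, Hspg2 and Lamb1 in OAD, and Nid2 and Lama4 in YAD. Lama5 was in place 8 in both telogen libraries and in place 4 in both anagen libraries.

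Each gene's values over the 4 libraries were also centred on the log2 scale and compared by root mean square (RMS) difference. The nearest pairs were Col4a1 with Col4a2 (RMS 0.0744) and Lama2 with Nid2 (RMS 0.0756). Lama5 was the farthest from the others, with Lamb1 as its nearest at an RMS of 0.500. Of 6792 other genes at 5 FPKM or more in every library, those nearest to the median profile of the 10 were Snrnp35 (RMS 0.0242), Fam53b (0.0289), Mrpl44 (0.0365), Rnf121 (0.0383) and Zfp24 (0.0391). This is a description over 4 libraries.

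The 10 other collagen IV and laminin chains had median log2 changes between ages of 0.01 for telogen and -0.09 for anagen, with none changed by 1 or more. As deposited 6 of the 10 were lower in OAD than YAD, and in TPM all 10 were. Between phases their median was 0.86 in young and 0.78 in old mice. Of all genes above 0, 2829 of 17622 in young and 2854 of 17712 in old mice were higher by 1 or more in anagen. Of these chains 3 and 4 were, led by Lama3 (log2 1.74 and 1.73). Lamb2 was the only one lower by 1 or more, in old mice (log2 -1.05), and not in TPM.

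Of 18 other components of the basement membrane, 11 were below YTD in OTD and 7 above it (median -0.13), and 14 were below YAD in OAD and 4 above it (median -0.16). Without mitochondrial genes the telogen split was 9 and 9. The only one changed by 1 or more with age was Npnt, which encodes the integrin ligand nephronectin, at 13.6 FPKM in OTD and 28.3 in YTD, against 3.98 in OAD and 3.71 in YAD (log2 -1.01 in telogen, under 1 in size after each rescaling). Sparc, which encodes a collagen-binding protein, was at 643 FPKM in OTD and 823 in YTD, against 195 in OAD and 246 in YAD, and was below the young library in both phases like Col4a1 and Col4a2. Col15a1, a collagen of the basement membrane zone, was at 21.6 FPKM in OTD and 34.0 in YTD, against 16.2 in OAD and 21.96 in YAD. Smoc1 went the other way and lay farthest above the young library in both phases (log2 0.60 in telogen and 0.62 in anagen). Agrn, which encodes the proteoglycan agrin, was higher in anagen by 1.66 in young and 1.91 in old mice, whereas Npnt was lower by 2.64 in young mice (log2 -2.64) and Tinagl1, a laminin-binding matrix protein gene, was the lowest in old mice (log2 -1.90).

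Of 16 receptor genes, none was changed by 1 or more with age, and the median was 0.08 in telogen and -0.05 in anagen. Between phases, 4 were higher and 4 lower by 1 or more in young mice, and 4 higher and 7 lower in old mice. Of all genes above 0, 32.7% in young and 31.7% in old mice differed by 1 or more in size. In TPM the receptor counts were 5 and 2 in young and 4 and 3 in old mice. Over all genes in TPM they were 5891 and 1274 in young and 4923 and 1502 in old mice. The syndecan gene Sdc1 had the largest difference upward, at 17.8 FPKM in YTD and 167.9 in YAD (log2 3.17), and at 18.2 in OTD and 195.7 in OAD (log2 3.36). Those farthest downward were sarcoglycan genes of the muscle dystrophin complex, Sgcb in young (log2 -2.67) and Sgca in old mice (log2 -3.02). The 20 muscle markers had medians of -3.01 and -1.99 in these comparisons, and their part was not tested.

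Of 16 genes for folding and export of collagen IV, 11 were lower in OTD than YTD and 12 were lower in OAD than YAD, with medians of -0.05 and -0.08. Without mitochondrial genes 5 were lower in OTD. The one changed by 1 or more as deposited was Mia3, which encodes the collagen export receptor TANGO1, at 36.1 FPKM in OTD and 96.1 in YTD, against 43.0 in OAD and 51.8 in YAD (log2 -1.39 in telogen). In TPM and in both versions without mitochondrial genes, Loxl2, a lysyl oxidase family gene named after its values were seen, was also lower by 1 or more in OAD than YAD (log2 -0.93 as deposited). Between phases, 12 of the 16 were lower in anagen in both ages (7 in young and 9 in old mice in TPM), and the chaperone gene Hsp90b1 was higher (log2 1.37 and 1.38), whereas Sec23a, a coat protein gene of export vesicles, was lower in young (log2 -2.05) and the lysyl hydroxylase gene Plod1 in old mice (log2 -1.50, and -0.94 in TPM).

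The 12 genes of basement membrane proteases and their inhibitors were without exception above YTD in OTD (median log2 change 0.75), and 3 of them by 1 or more. All 12 were also above YTD under every rescaling, but these moved all genes up or hardly at all, so the genes could hardly turn. Over all genes of at least 1 FPKM, 5716 of 12982 were higher in OTD. Of 17230 genes above 0, 287 were higher in OTD by 1 or more. Adamts1, which encodes a secreted metalloprotease, had the largest difference, at 24.7 FPKM in OTD against 7.83 in YTD (log2 1.54). Between OAD and YAD 6 were above and 6 below the young library (median -0.02, and 2 above and 10 below in TPM), with none changed by 1 or more. The difference between the phases was not tested. In telogen the macrophage markers (14 of 15 higher, median 0.47, sums of 860 FPKM in OTD and 527 in YTD) and the endothelial markers (median 0.58) were higher in OTD as well, and their part was not tested. Between phases, 5 of the 12 were lower by 1 or more in YAD, led by the inhibitor Timp2 (log2 -1.61), and 7 in OAD. In TPM none of the 12 was so in YAD and 6 were in OAD. Over all genes above 0 as deposited, 2938 of 17622 were lower by 1 or more in YAD and 2759 of 17712 in OAD. In TPM these counts were 1274 in YAD and 1502 in OAD.

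Between ages the marker lists differed as follows. Fibroblast markers had a median of 0.46 in telogen and -0.58 in anagen, mural cell markers 0.36 and 0.01, Schwann cell markers 0.33 and -0.33, macrophage markers 0.47 and -0.26, keratinocyte markers -0.36 and 0.21, HF markers -0.85 and 0.00, muscle markers -0.63 and 0.22, and adipocyte markers -0.10 and 0.30. In anagen the fibroblast, Schwann cell and macrophage lists had medians below 0, as did the 10 basement membrane genes, and the adipocyte and endothelial lists had medians above 0, under every scaling. The rescalings moved all genes down or hardly at all in anagen, so these medians below 0 could hardly turn. The keratinocyte and muscle lists also had medians above 0 under every scaling that kept their genes. Those of the mural cell and HF lists turned with the scaling. The part of these cell types was not tested.

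**Figure D5:**
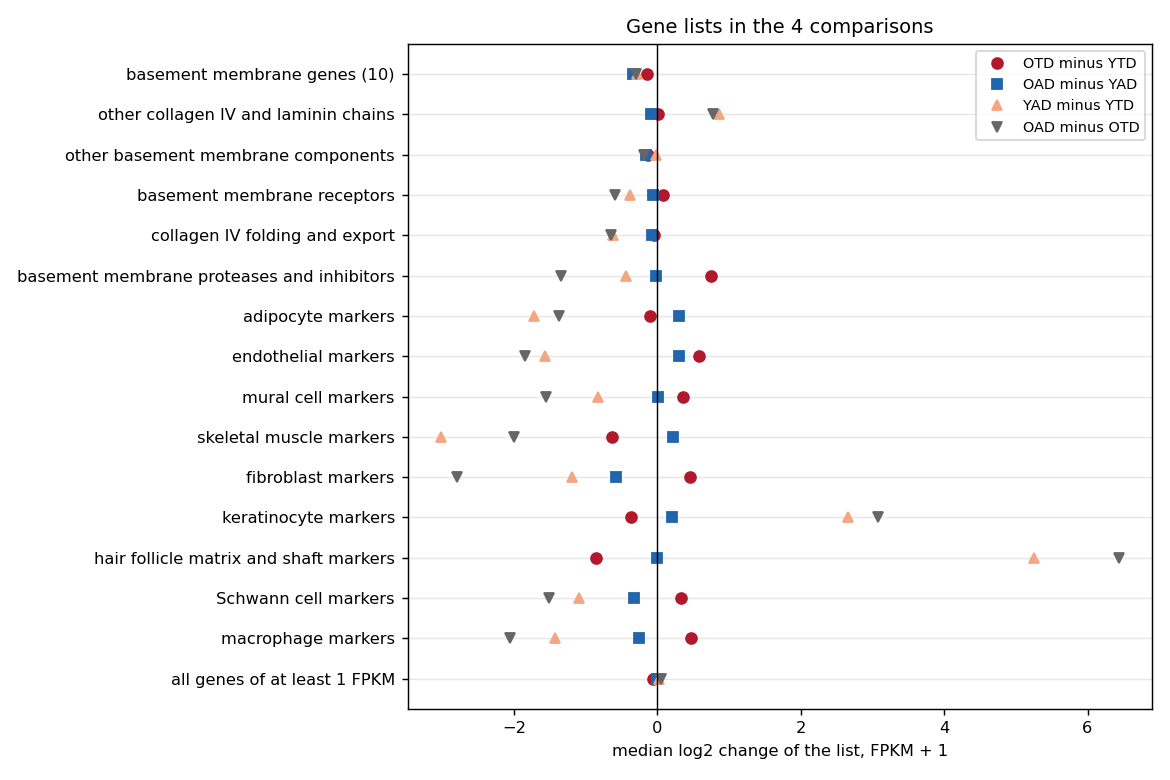
Median log2 change (x axis, FPKM + 1) of each gene list (y axis) in the 4 comparisons, with all genes of at least 1 FPKM in the bottom line. The basement membrane genes lie between -0.34 and -0.14 in all 4, while the HF markers reach 5.26 and 6.43 between phases.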

How the data were processed

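The authors deposited FPKM for 22913 genes in each of 4 dWAT libraries, with gene positions and lengths on GRCm38, and 97.0% of the lengths are multiples of 3, so that they are coding lengths. RNA was extracted with Trizol and sequenced on an Illumina HiSeq machine per the study's methods. The submitters' processing notes name bcl2fastq and TopHat2. The tool that made the FPKM, the annotation and any scaling between libraries are not given in the sources used here. FPKM were used as deposited, with groups taken from the titles. A change is the difference of log2(FPKM + 1), counted from 1 in size. Depth was estimated from the lowest values of FPKM times length for features of 2 to 8 kb, and ratio intervals are exact binomial (Clopper-Pearson) at 95% on the estimated fragments. With 1 library per group no test was made. The 10 genes and all lists were chosen with earlier results of these data known. Besides the 10, a list's largest rise and fall of at least 1 in size, at 1 FPKM or more in either library, were named, and any measured chain or component at 1 FPKM or more could be. Alternatives were a pseudocount of 0.1, TPM, the median of ratios over 15507 genes, TPM without 13 mitochondrial genes, TPM also without muscle and hair genes (22764 genes kept), a threshold of 1.5-fold, a minimum of 1 FPKM, and chain shares by fragments. Rescaling of the other lists was chosen after seeing the data. Promoter windows are from RefSeq (GRCm38.p6) and gene positions from the deposited files. Scripts ran in Python 3.11.15 with numpy 2.4.6, pandas 2.3.3, scipy 1.17.1 and matplotlib 3.10.9, and were tested on simulated data. Some genes of the lists are not reported here by name.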

Additional observations from a re-analysis of the deposited data

Results flagged for a closer look

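Some genes moved in opposite directions in the compared pairs of libraries, and none of these differences was tested, since each group is 1 library. For the old-against-young change, 4 of the 10 genes were higher in telogen and lower in anagen, with an anagen minus telogen difference of log2 changes of -0.47 for Lama2, -0.45 for Lamb1, -0.60 for Nid1 and -0.54 for Nid2. For Lama2, Nid1 and Nid2 the telogen change was within counting error, and for Lamb1 the anagen change was. For the anagen-against-telogen change, Hspg2 was lower in young mice (log2 -0.60) and higher in old mice (log2 0.08), an old minus young difference of 0.68. Both Hspg2 changes were beyond counting error, but the direction in young mice turned in TPM and that in old mice turned in TPM without mitochondrial genes.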

How the results depend on the processing

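The median log2 change of the 10 genes was -0.14 in telogen and moved to 0.068 in TPM without mitochondrial genes and to -0.0015 when muscle and hair genes were also left out. In anagen it moved from -0.34 to -0.56 in TPM, -0.51 without mitochondrial genes and -0.46 without mitochondrial, muscle and hair genes. Between phases in young mice it moved from -0.28 to 0.35 in TPM, -0.14 without mitochondrial genes and -0.13 without all of these, and in old mice from -0.29 to 0.30 in TPM and -0.46 without mitochondrial genes. At a threshold of 1.5-fold, 1 of the 10 passed in telogen, 1 in anagen, 6 between phases in young and 6 in old mice. The share of all genes at 1.5-fold is not given, so these counts are no result about the 10 genes. In TPM 4 of the 10 were changed by 1 or more between phases in young mice. Over all genes in TPM, 5891 of 17622 were higher and 1274 lower by 1 or more there. By fragments instead of per length, Lama4 held 39.4% (OTD), 27.0% (YTD), 7.15% (OAD) and 5.68% (YAD) of the alpha chains, and Lama5 held 37.4%, 51.5%, 70.8% and 72.8% in the same order. Of the genes changed by 1 or more over the whole table, the share that were higher was 49.1% between phases in young mice as deposited and 82.2% in TPM. The directions of the 10 genes held in telogen, and those of all but Lama4 in anagen. A rescaling moves all genes of a library nearly alike. In telogen it moved the median of all genes from -0.064 to between -0.065 and 0.129, so genes higher in OTD could hardly turn. In anagen it moved that median from -0.0006 to between -0.211 and 0.014, so genes lower in OAD could hardly turn. For those genes the outcome was largely fixed in advance and is no support. No paired analysis was possible because each group has 1 library.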
